A study of Mus musculus with 4 samples.

Results

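Most of the genes described here make acetyl-CoA in the cytosol or turn it into fatty acids and sterols. The set is 35 genes of the 56493 in the count table, chosen by symbol, and each symbol matched 1 row. Of these, 6 are grouped as acetyl-CoA genes, 9 belong to fatty acid synthesis and 20 to sterol synthesis. The acetyl-CoA genes include Acat2, which uses acetyl-CoA, and Acat1 and Acss1, which act in mitochondria. RNA was sequenced from cells sorted from the retina of wild-type mice. The labels call the cells RGC, for retinal ganglion cells, which send their axons through the optic nerve to the brain. In 2 libraries the mice had received AAV2-CrAT, an adeno-associated virus vector for carnitine acetyltransferase, in the vitreous of the eye. In the other 2 libraries they had received AAV2-MCS, a name the labels do not spell out, nor the NCd8 that follows it in the titles of both groups. The optic nerve of all mice was crushed a month after the vector. The labels give neither age nor sex, do not say which cells the vector reached, and are silent on whether replicates are different animals. The p-values therefore rest on a spread that may be only technical.

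Acetyl-CoA made inside mitochondria cannot cross their inner membrane, so cells export citrate and cleave it in the cytosol, or activate acetate there. The cytosolic acetyl-CoA is carboxylated to malonyl-CoA for fatty acids or condensed to mevalonate for sterols. Transcription of both branches is driven by the sterol regulatory element binding proteins (SREBPs), which Scap escorts out of the endoplasmic reticulum when sterols are scarce and Insig1 holds back when they are plentiful. Carnitine acetyltransferase transfers acetyl groups from coenzyme A to carnitine and back. The comparison of the groups asks how this pathway's transcripts differ in sorted cells of the injured retina when the vector carries CrAT.

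The libraries held 24494253 to 27097438 counts. Crat itself, at 72.5 and 49.9 CPM in the CrAT libraries against 38.3 and 47.7 CPM in the MCS libraries, had a log2 fold change of 0.51 (SE 0.33), and it did not pass the test. CPM here are counts scaled to library size and adjusted between libraries by edgeR's TMM factors. Fold changes are CrAT over MCS. No gene of 19638 tested had an adjusted p under 0.05 in edgeR's quasi-likelihood test, which is 0% of them, while 815 (4.15%) had an unadjusted p under 0.05 and DESeq2 called 55 (0.291%). Markers of other retinal cells were abundant. The summed level of 10 rod markers was 48320 CPM in CrAT replicate 1 and 26260 CPM in CrAT replicate 2, against 47309 CPM in MCS replicate 1 and 28306 CPM in MCS replicate 2. The 10 ganglion cell markers summed to 82.9 and 193.1 CPM in CrAT against 59.0 and 138.7 CPM in MCS. Of the 9 tested, 6 had a log2 fold change above 0 and 3 below. Their counts differed widely. Nefl had 532 to 1904 counts per library, while the ganglion cell factor Pou4f2 had no count in either CrAT library or in MCS replicate 1. All 12 markers of Mueller glia, which span the retina and support its neurons, were lower in CrAT, with summed levels of 15699 and 12760 CPM in CrAT against 23556 and 21037 CPM in MCS. In such mixed samples fewer cells of a type and less RNA per cell cannot be told apart.

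All 35 genes passed the filter on low counts, and none passed the test. In edgeR 0 of 35 had an adjusted p under 0.05 and 0 of 35 an unadjusted p under 0.05, and DESeq2 gave 0 and 0. The adjusted p of every member was 1 in edgeR. The log2 fold change was above 0 for 21 and below 0 for 14 members, with a median of 0.15, against 50.6% above 0, 49.4% below 0 and a median of 0.01 over all genes tested. The CrAT libraries exceeded both MCS libraries for 7 members and fell short of both for 6. Over all genes tested this held for 15% and 16.6%. The median log2 fold change was 0.29 for the acetyl-CoA genes, -0.20 for the fatty acid genes and 0.21 for the sterol genes. The fatty acid median was near 0 with any 1 library left out, at 0.05 without CrAT replicate 1, -0.02 without CrAT replicate 2, 0.02 without MCS replicate 1 and 0.06 without MCS replicate 2. The acetyl-CoA median was 0.10 without CrAT replicate 2, 0.18 without MCS replicate 1 and 0.15 without MCS replicate 2, and the sterol median was 0.13 without CrAT replicate 1.

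**Figure D1:**
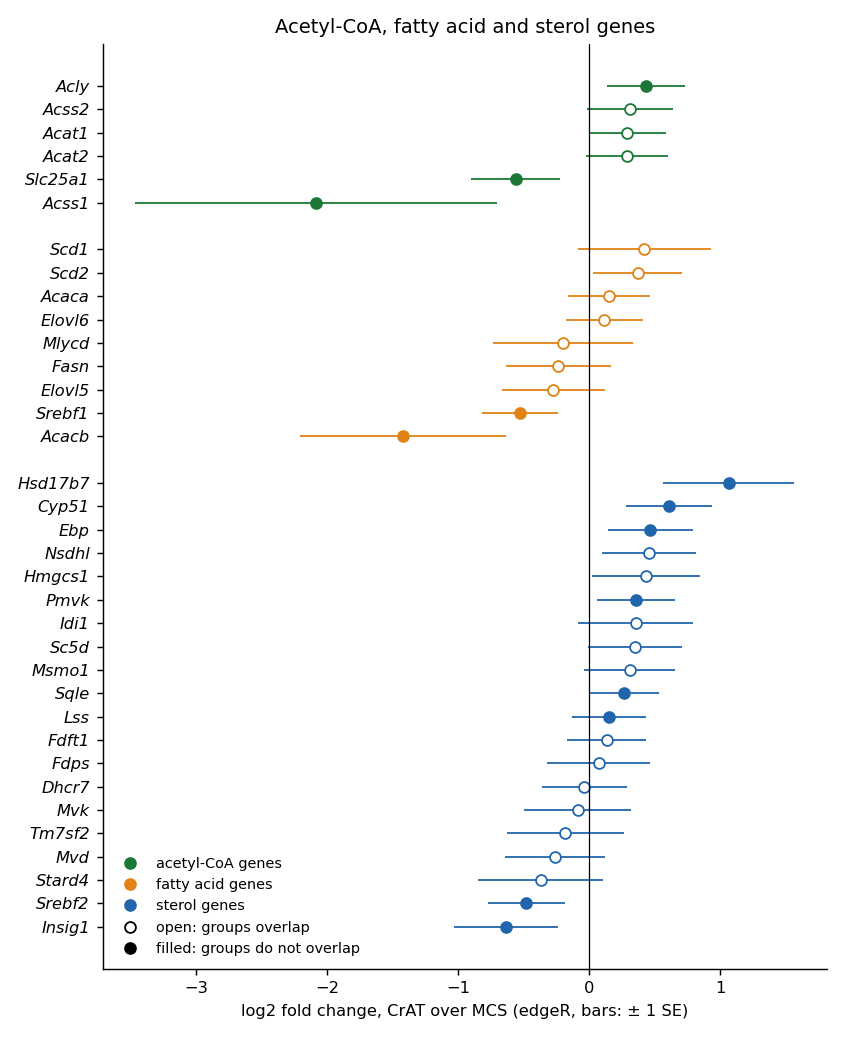
Log2 fold change, CrAT over MCS, of the 35 genes by branch (x axis, edgeR; bars, 1 SE; filled points, groups that do not overlap). Sterol enzymes lie mostly right of 0, Srebf1, Srebf2 and Insig1 left of it, and no gene passed the test.

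The promoters of the sterol genes share letters that the choice of members did not use. RefSeq windows on GRCm38.p6, from 250 bases before to 50 after the annotated start, were at hand for 28 of the 35 genes. A gene with more than 1 window was counted once, with a match in any of them. The letters CCAAT are bound by the factor NF-Y that works with SREBPs. They occurred on either strand for 16 of 16 sterol, 5 of 7 fatty acid and 3 of 5 acetyl-CoA genes with a window. Of all 27025 genes with a window, 41.1% had them. The letters GGGCGG, bound by Sp1, occurred for 15 of 16 sterol, 1 of 7 fatty acid and 5 of 5 acetyl-CoA genes, against 38.2% of all. The sterol regulatory element was searched as TCACNCCAC on both strands and was found for 1 member, Hmgcs1, against 1.44% of all genes with a window. The shares over all genes include genes that did not pass the filter on low counts, as 27025 genes had a window and 19638 were tested. No share among the genes tested was taken. A match describes letters and not binding, and a window without one says only that these letters are not in it. Below are 90 bases upstream of the start of some of these genes, none of which passed the test, written 5′ to 3′ on the gene's strand. They are the Hmgcs1 window with the sterol regulatory element, 2 sterol enzymes with the highest log2 fold changes, the 2 sterol regulators and the fatty acid synthase. Each stretch was chosen from the 250 upstream bases to hold the most matches, the sterol regulatory element first, so distances to the start differ. The first base lies 176 bases before the start in Hmgcs1, 182 in Hsd17b7, 135 in Srebf2, 229 in Insig1, and 90 in Cyp51 and Fasn. Matches outside a stretch are not shown, such as the GGGCGG of Cyp51 135 bases before the start. Capitals mark the matches to these 3 motifs, with ATTGG and CCGCCC as the opposite strand of CCAAT and GGGCGG. Matches overlap only in Fasn, where 2 of its 3 CCAAT matches share letters.
Hmgcs1, chr13:119690175-119690264, plus strand: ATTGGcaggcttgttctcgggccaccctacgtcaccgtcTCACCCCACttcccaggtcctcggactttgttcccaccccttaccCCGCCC
Hsd17b7, chr1:169969298-169969387, minus strand: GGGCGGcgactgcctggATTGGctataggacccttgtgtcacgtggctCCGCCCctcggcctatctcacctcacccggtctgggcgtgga
Cyp51, chr5:4104698-4104787, minus strand: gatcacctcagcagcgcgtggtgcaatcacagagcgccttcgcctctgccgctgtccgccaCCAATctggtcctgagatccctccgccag
Srebf2, chr15:82147134-82147223, plus strand: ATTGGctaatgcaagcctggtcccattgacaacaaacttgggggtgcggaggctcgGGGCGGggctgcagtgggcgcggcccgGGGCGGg
Insig1, chr5:28071183-28071272, plus strand: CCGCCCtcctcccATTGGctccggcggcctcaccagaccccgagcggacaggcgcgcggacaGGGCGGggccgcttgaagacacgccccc
Fasn, chr11:120824548-120824637, minus strand: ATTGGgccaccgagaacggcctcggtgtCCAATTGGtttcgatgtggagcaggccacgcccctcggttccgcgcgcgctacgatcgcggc

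Per length, the most abundant members were the enzyme that cleaves citrate and a desaturase. Levels between genes are compared as deposited FPKM, reads scaled to exon length and library size. The mean over the 4 libraries was 62.5 for Acly, 62.4 for the stearoyl-CoA desaturase Scd2 and 49.9 for the phosphomevalonate kinase Pmvk. The libraries of these 3 genes overlapped in range, from 47.4 to 73.4 FPKM for Acly, 46.2 to 82.2 for Scd2 and 42.5 to 63.4 for Pmvk, so their order is not beyond their spread. At the low end stood Scd1 at 0.690, the mitochondria-bound carboxylase Acacb at 0.263 and the mitochondrial acetyl-CoA synthetase Acss1 at 0.148. Some related enzymes differed widely in level. Scd2 was 59.9-fold and 134-fold above Scd1 in CrAT replicates 1 and 2 and 89.5-fold and 95.5-fold above it in MCS replicates 1 and 2, by FPKM. The cytosolic Acaca exceeded Acacb 53.5-fold and 8.87-fold in CrAT and 8.43-fold and 4.20-fold in MCS. The SREBP genes were alike in level, with a ratio of Srebf2 to Srebf1 of 0.983 and 1.08 in CrAT and 0.843 and 1.20 in MCS.

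**Figure D2:**
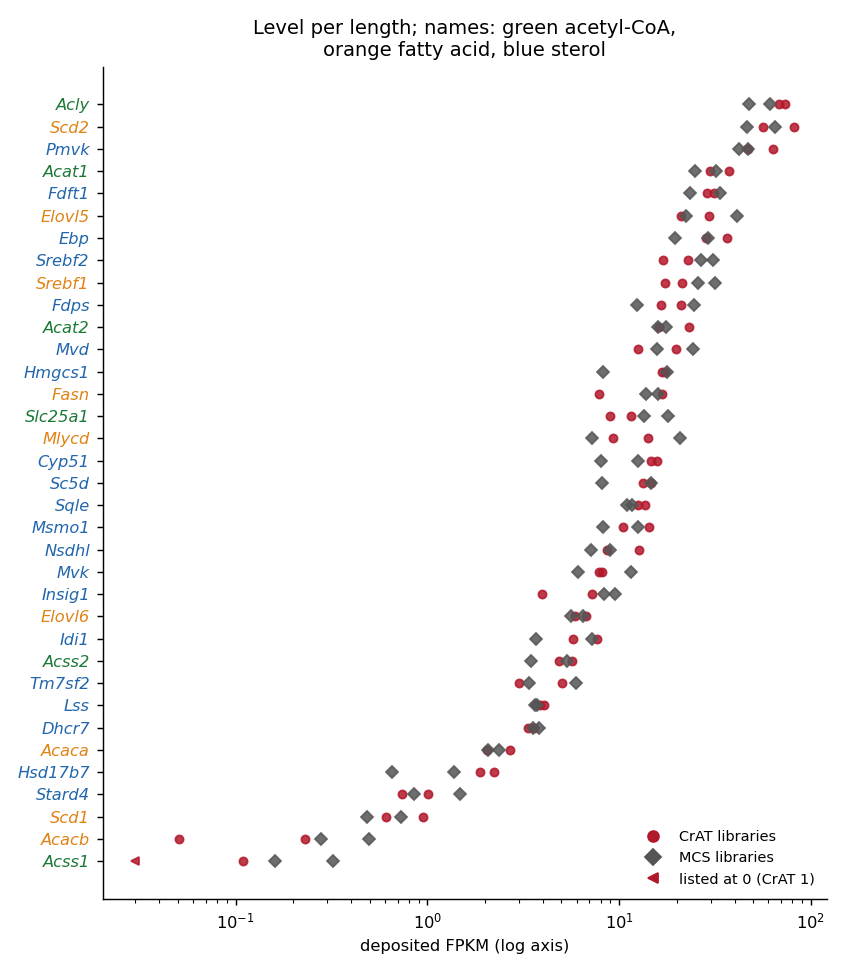
Deposited FPKM (x axis, log) of the 35 genes, ordered by their mean, in the CrAT libraries (circles) and MCS libraries (diamonds). Acly and Scd2 lead, and Scd1, Acacb and Acss1 close the order, with Acss1 listed at 0 in CrAT replicate 1.

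Among the acetyl-CoA genes, the cytosolic enzymes were on the higher side in CrAT and the citrate carrier was lower. Acly, the ATP citrate lyase that makes most cytosolic acetyl-CoA, was 371 and 390.3 CPM in the CrAT libraries against 318 and 246 CPM in the MCS libraries. The groups did not overlap, and the log2 fold change of 0.44 (SE 0.30) did not exceed the spread by the test (edgeR, adjusted p = 1). Slc25a1, the carrier that exports citrate from mitochondria, was 19.9 and 25.2 CPM in CrAT against 28.6 and 38.0 CPM in MCS. Here the CrAT libraries were the low ones, without overlap, at -0.56 (SE 0.34). Acss2, which activates acetate in the cytosol and nucleus, was 50.7 and 58.2 CPM in CrAT against 53.3 and 34.5 CPM in MCS. The groups overlapped, MCS replicate 2 was the low library, and the log2 fold change of 0.31 (SE 0.33) was 0.04 without it. Genes on the opposite strand lie across much of the Acss2 locus, so part of its count cannot be assigned without strand. Of the 50-base words of its longest transcript, 7.43% also occur in other genes' transcripts.

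Both thiolases overlapped between the groups. Acat1, which acts on acetoacetyl-CoA in mitochondria, was 115 and 142 CPM in CrAT against 92.4 and 117 CPM in MCS, a log2 fold change of 0.29 (SE 0.29) that was 0.13 without MCS replicate 1. Acat2, its cytosolic counterpart at the entry to the mevalonate pathway, was 42.4 and 59.6 CPM in CrAT against 39.9 and 43.6 CPM in MCS, a log2 fold change of 0.29 (SE 0.31) that was 0.04 without CrAT replicate 2. Acat2 shares 45.9% of its 50-base words with Acat3, a near copy with 807 to 1257 counts per library, so its value is uncertain on its own. The mitochondrial Acss1 had 0 and 12 counts in CrAT and 33 and 18 in MCS. The count of 0 allows up to 0.122 CPM, and such counts carry a wide error (log2 fold change -2.08, SE 1.38).

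In the fatty acid branch no enzyme of the main synthetic line separated the groups. Acaca, whose product malonyl-CoA commits acetyl-CoA to fatty acids, was 47.6 and 35.0 CPM in CrAT against 39.7 and 34.8 CPM in MCS, a log2 fold change of 0.15 (SE 0.31). A pseudogene, Gm5182, shares 52.6% of the 50-base words of Acaca but held only 20 to 82 counts per library. Fasn, the fatty acid synthase, was 88.4 and 184 CPM in CrAT against 148 and 172 CPM in MCS. CrAT replicate 1 was the low library. The log2 fold change of -0.24 (SE 0.40) was 0.20 without that library. Mlycd, which destroys malonyl-CoA, varied more within MCS, at 21.0 and 60.3 CPM, than between the groups, with 28.3 and 42.5 CPM in CrAT.

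The desaturases were on the higher side in CrAT and the elongases near or below 0, again with overlap in all. Scd2 was 318 and 452 CPM in CrAT against 349 and 248 CPM in MCS, a log2 fold change of 0.37 (SE 0.34) that was 0.11 without CrAT replicate 2. Scd1 was 4.77 and 3.02 CPM in CrAT against 3.50 and 2.32 CPM in MCS, with 0.42 (SE 0.51), or 0.054 without CrAT replicate 1. Replicate 1 was the higher library of Scd1 in both groups, unlike Scd2. Elovl6, which lengthens palmitate, was 39.0 and 43.7 CPM in CrAT against 35.4 and 40.8 CPM in MCS, with 0.12 (SE 0.29). Elovl5, which lengthens polyunsaturated chains, was 107 and 74.8 CPM in CrAT against 143 and 76.8 CPM in MCS, with -0.27 (SE 0.39), and MCS replicate 1 stood highest.

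Acacb and Srebf1 were the members of the fatty acid branch whose groups did not overlap, and both were lower in CrAT. That is 2 of 9 lower and 0 of 9 higher, where 16.6% and 15% of all genes tested were. Acacb makes the malonyl-CoA that restrains fatty acid entry into mitochondria. It was 0.503 and 2.23 CPM in CrAT against 2.65 and 4.67 CPM in MCS, a log2 fold change of -1.42 (SE 0.79) on 12 to 129 counts per library. Leaving out CrAT replicate 1 gave -0.72 and leaving out CrAT replicate 2 gave -2.84. Srebf1, the SREBP gene tied mainly to lipogenesis, was 101 and 120.4 CPM in CrAT against 176 and 143 CPM in MCS, a log2 fold change of -0.53 (SE 0.29).

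The sterol regulators were lower in CrAT as well. Srebf2, the SREBP gene tied mainly to sterol synthesis, was 126 and 166 CPM in CrAT against 189 and 218 CPM in MCS, a log2 fold change of -0.48 (SE 0.30). Insig1, the protein that retains SREBPs and is itself among their targets, was 12.6 and 22.4 CPM in CrAT against 28.9 and 25.5 CPM in MCS, a log2 fold change of -0.63 (SE 0.40). For both genes every CrAT library lay below every MCS library, and CrAT replicate 1 was the lowest of all. Leaving out CrAT replicate 1 gave -0.28 for Insig1, and leaving out CrAT replicate 2 gave -1.09. With Srebf1, all 3 SREBP and Insig1 transcripts were lower without overlap, by the TMM-scaled CPM and by the deposited FPKM, where 16.6% and 18.7% of all genes were. Their summed level was 239 and 309 CPM in CrAT against 394 and 386 CPM in MCS. Mueller glia markers moved the same way in these libraries, with all 12 lower and 8 of 12 without overlap. Other glia did so too. All 3 astrocyte markers tested were lower, 2 without overlap, and all 3 oligodendrocyte markers tested were lower, 1 without overlap. Of 5 microglia and macrophage markers tested 4 were lower, 2 of them without overlap, and 1 was higher. The part of any of these cells in the lower regulator transcripts was not tested.

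**Figure D3:**
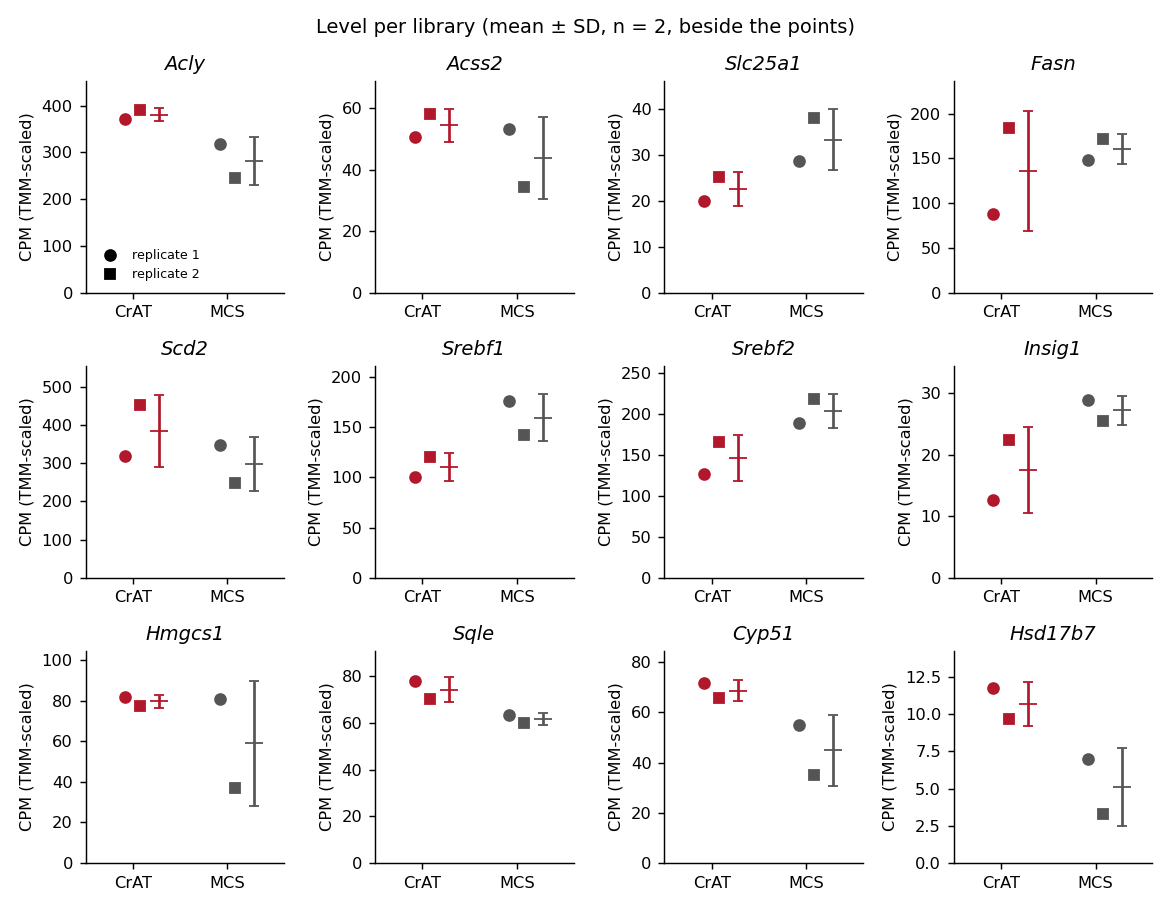
TMM-scaled CPM per library (y axis, from 0) of 12 genes in CrAT and MCS, with circles for replicate 1, squares for replicate 2 and the mean ± SD (n = 2) beside them. Srebf1, Srebf2, Insig1 and Slc25a1 lie lower in both CrAT libraries, and Acly, Sqle, Cyp51 and Hsd17b7 higher.

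The enzymes of sterol synthesis lay on the other side. Of 17 enzymes 13 had a log2 fold change above 0, with a median of 0.31, and the number above 0 was 12 to 15 with any 1 library left out. The enzymes that made up this number differed between these fits. Hmgcs1, Mvk, Mvd, Idi1, Fdps, Fdft1, Tm7sf2, Sc5d and Dhcr7 each changed sides of 0 in some of them. In 6 of 17 the groups did not overlap with CrAT higher and in 0 of 17 with CrAT lower, against 15% and 16.6% of all genes. The 6 were Hsd17b7, Cyp51, Ebp, Pmvk, Sqle and Lss, and by the deposited FPKM 4 of them remained, without Ebp and Pmvk, against 12.6% of all genes. The summed level of the 17 was 989 and 909 CPM in CrAT against 780.1 and 802 CPM in MCS. CrAT replicate 1 was the highest library for 10 of 17 and MCS replicate 2 the lowest for 8 of 17, which they were for 22.6% and 28.3% of all genes tested. Grouping the enzymes apart from the regulators was done with these values known. All 6 amacrine cell markers were also above 0, with summed levels of 802 and 2146 CPM in CrAT that overlapped the 687 and 1306 CPM in MCS. Without CrAT replicate 2 all 6 were below 0, from -1.77 (Tfap2a) to -0.092 (Slc6a9). Of 3 horizontal cell markers the 2 tested were above 0, and the 3 summed to 25.7 and 81.6 CPM in CrAT against 8.77 and 44.3 CPM in MCS, with overlap. Those 2, Calb1 and Onecut1, were at -0.0011 and -0.60 without CrAT replicate 2. Of 5 cone markers 4 were above 0 and 1 below, with sums of 2351 and 1522 CPM in CrAT against 2135 and 1644 CPM in MCS, with overlap. Of 10 rod markers 6 were above 0 and 4 below. Of 9 ganglion cell markers tested 6 were above 0 and 3 below, and of 6 bipolar cell markers 3 were above and 3 below. The part of any of these cells in the enzyme transcripts was not tested.

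The mevalonate steps, which end at farnesyl diphosphate, were mixed. Hmgcs1, the synthase that condenses acetyl-CoA and acetoacetyl-CoA, was 82.1 and 77.5 CPM in CrAT against 80.8 and 37.2 CPM in MCS. MCS replicate 2 alone was low, and the log2 fold change of 0.44 (SE 0.41) was -0.01 without it. The antisense RNA Gm48342, which overlaps Hmgcs1, was low in the same library, with 386 and 430 counts in CrAT and 407 and 204 counts in MCS. It shares 13.6% of the 50-base words of Hmgcs1, and reads from that part cannot be told apart without strand. Pmvk was 112 and 80.7 CPM in CrAT against 71.7 and 78.7 CPM in MCS, a log2 fold change of 0.36 (SE 0.30) that was 0.10 without CrAT replicate 1. The other 4 enzymes here, Mvk, Mvd, Idi1 and Fdps, overlapped between the groups and had log2 fold changes of -0.26 to 0.36. Mvk, Mvd and Fdps were highest in MCS replicate 2, where Idi1 was lowest. For Fdps, 86.4% of the 50-base words also occur in other transcripts, so its value is uncertain.

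The steps from squalene to cholesterol held the highest log2 fold changes of the pathway. Hsd17b7, which reduces a ketone formed during removal of the methyl groups of lanosterol, was 11.7 and 9.66 CPM in CrAT against 6.96 and 3.26 CPM in MCS. The groups did not overlap, and the log2 fold change was 1.07 (SE 0.50), with an adjusted p of 1 in edgeR. It was 0.62 without MCS replicate 2 and 1.71 without MCS replicate 1. Cyp51, the lanosterol demethylase, was 71.6 and 65.6 CPM in CrAT against 54.9 and 34.9 CPM in MCS, a log2 fold change of 0.61 (SE 0.33). That value was 0.33 without MCS replicate 2. Sqle, the squalene epoxidase and a rate-limiting step, was 78.0 and 70.4 CPM in CrAT against 63.5 and 59.9 CPM in MCS, a log2 fold change of 0.27 (SE 0.27) that stayed between 0.19 and 0.36 with any 1 library left out.

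Ebp, a sterol isomerase, was 86.8 and 66.3 CPM in CrAT against 44.8 and 65.8 CPM in MCS, so the groups parted by less than 1 CPM. Its log2 fold change of 0.47 (SE 0.33) was 0.22 without MCS replicate 1. Nsdhl, which removes a carboxyl group at the step before Hsd17b7, was 37.3 and 24.7 CPM in CrAT against 20.0 and 25.2 CPM in MCS and overlapped, with a log2 fold change of 0.46 (SE 0.36) that was 0.13 without CrAT replicate 1. The lanosterol synthase Lss had the narrowest spread, at 42.9 and 44.2 CPM in CrAT against 39.6 and 38.7 CPM in MCS, and its log2 fold change was 0.15 (SE 0.28). The other 5 late enzymes, Fdft1, Tm7sf2, Msmo1, Sc5d and Dhcr7, overlapped and had log2 fold changes of -0.18 to 0.35. Dhcr7, which makes cholesterol from 7-dehydrocholesterol, was the flattest, at 21.6 and 19.5 CPM in CrAT against 22.0 and 20.2 CPM in MCS. Fdft1 overlaps the much more abundant Ctsb on the opposite strand, with 27561 to 30540 counts of Ctsb per library, and its reads cannot be told apart there. The sterol carrier Stard4 was at most 8.16 CPM, with a log2 fold change of -0.37 (SE 0.48).

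**Figure D4:**
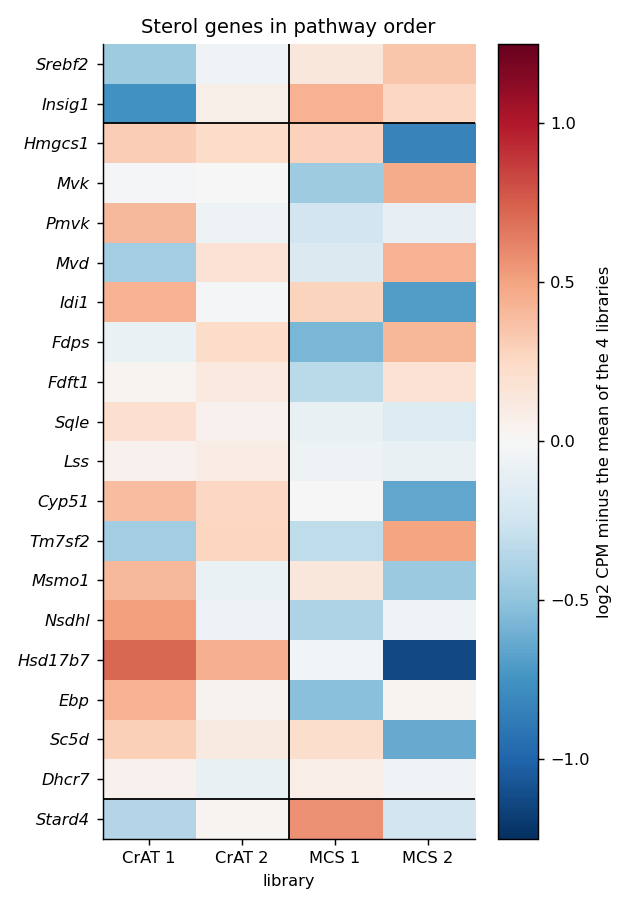
Log2 CPM minus the mean of the 4 libraries (colour) for the 20 sterol genes (rows, regulators first, then enzymes in pathway order, then the carrier) in each library (columns). Srebf2 and Insig1 are lowest in CrAT replicate 1, while Hmgcs1, Idi1, Cyp51, Hsd17b7, Msmo1 and Sc5d are lowest in MCS replicate 2.

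Genes of the same pathways outside the 35 did not pass either. Of 24 other sterol and cholesterol genes tested 0 passed in edgeR, 14 were above 0 and 10 below, with a median of 0.04, and 2 were higher and 5 lower without overlap, where 15% and 16.6% of all genes were. Scap, the escort of SREBPs, was 72.2 and 91.1 CPM in CrAT against 132 and 109.5 CPM in MCS, without overlap, a log2 fold change of -0.56 (SE 0.29). Cyp27a1, a sterol hydroxylase, had -0.66 (SE 0.40), or -0.25 without CrAT replicate 2. Other genes that control SREBPs, named after their values were seen, did not share a direction. Mbtps1 and Mbtps2, whose proteases release SREBPs from the membrane, were at 0.38 (SE 0.27) and -0.36 (SE 0.37). Insig2, which retains SREBPs as Insig1 does, was at 0.00 (SE 0.27).

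Of 36 other lipogenic genes tested 0 passed, 17 were above 0 and 19 below, with a median of -0.02, and 5 were higher and 7 lower without overlap, against the same 15% and 16.6%. Acyl-CoA synthetases, which activate fatty acids, stood at both ends. Acsl5 was 13.0 and 27.0 CPM in CrAT against 7.68 and 11.8 CPM in MCS, a log2 fold change of 1.03 (SE 0.49), and the far more abundant Acsl3 was 804 and 560.2 CPM in CrAT against 1514 and 842 CPM in MCS, with -0.79 (SE 0.41). Acsl3 and Acsl5 did not overlap between the groups. The Acsl5 value was 0.43 without CrAT replicate 2, and that of Acsl3 was -0.30 without MCS replicate 1. The acyltransferase Agpat2 had -0.78 (SE 0.41) and the desaturase family gene Fads3 had -0.56 (SE 0.29). Of 15 other acetyl-CoA and ketone body genes 0 passed, 7 were above 0 and 8 below, with a median of -0.11, and 4 were higher and 2 lower without overlap, against 15% and 16.6% of all genes. Bdh2, a short-chain dehydrogenase, was 23.3 and 17.4 CPM in CrAT against 30.8 and 42.1 CPM in MCS, with -0.84 (SE 0.35). The citrate importer Slc13a5 had -0.76 (SE 0.45), and Aacs, which activates acetoacetate in the cytosol for lipid synthesis, had 0.45 (SE 0.30).

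**Figure D5:**
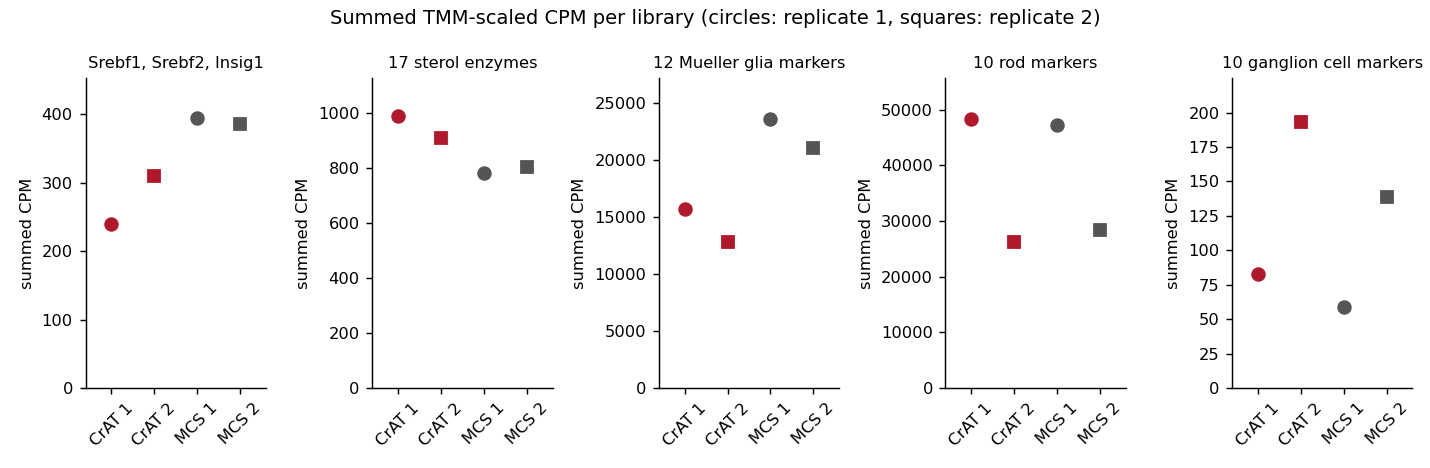
Summed TMM-scaled CPM (y axis, from 0) per library for the 3 regulators, the 17 sterol enzymes and the markers of Mueller glia, rods and ganglion cells. The regulators and the Mueller glia markers are lower in both CrAT libraries, the sterol enzymes are higher, and rod and ganglion cell markers follow the replicate number.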

How the data were processed

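Counts and FPKM of every gene, 1 column per sample, were deposited by the authors. Exon length and a scale for each library turned the FPKM into fractional values within 0.5 of the deposited counts. The scale was fitted to keep them within that limit. The deposited counts were therefore read as estimated counts that the authors rounded. The submitters' processing notes name STAR 2.7.2b, GRCm38.p6 and mm10, with no word on the counter's settings. The cDNA kit, per the labels' protocols, does not mark strand. Only 1402 of 51898 genes found in both the tables and GENCODE M21 (GRCm38) had equal coordinates, so the files' coordinates are not printed. Each table held 2 columns of samples not analysed here.

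Genes were kept by edgeR's filterByExpr and scaled by TMM (factors 0.970 to 1.02). Groups were compared by the quasi-likelihood F test of edgeR 4.0.16 in R 4.3.3, with group as the term and 2 residual degrees of freedom, Benjamini-Hochberg adjusted over 19638 genes at a threshold of 0.05. DESeq2 1.42.0 was an alternative. With 2 libraries against 2 an exact permutation test cannot go below 0.333, and none is printed. On simulated counts for CrAT against MCS (18998 genes), 12% of genes changed 2-fold, 48% at 4-fold and 90% at 16-fold were recovered, with 4 unchanged genes called. The simulated libraries were independent, and each gene had the spread typical of its level. Spread particular to a gene and deviations shared by same-numbered libraries were left out, so recovery in the data may differ. Standard errors are the log2 fold change over the root of F. A floor is 3 counts, and covers counting error only.

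Shared sequence is the share of 50-base words of a gene's longest GENCODE M21 transcript found in another gene's transcripts. Promoters are RefSeq's. Members and lists were chosen with earlier results of these data known. Named are the enzymes and regulators that define each branch, up to 4 more members per branch with the smallest p, and up to 4 genes of each other list. Some genes taken by this rule are not reported here.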

Additional observations from a re-analysis of the deposited data

How the results depend on the processing

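No member passed the threshold under any alternative run, and of 175 member values under another scaling, no filter, DESeq2 or the block, 0 lay on the other side of 0. Over all genes edgeR called 0 under TMM, 2 with no filter on low counts, and DESeq2 called 55. The sterol median of 0.21 was 0.16 with library totals only. The titles number the replicates alike in both groups, but nothing says that a number marks a shared animal or batch. Same-numbered libraries deviated from their group means together (correlation across genes 0.39). With the replicate block 0 genes passed, 1922 (9.79%) had an unadjusted p under 0.05 against 815 without it, as did 3 of 35 members (Acacb, Hsd17b7 and Cyp51), and the fatty acid median was -0.043. With each library left out in turn the medians ranged from 0.096 to 0.42 (acetyl-CoA), -0.018 to 0.063 (fatty acid) and 0.13 to 0.25 (sterol). Of the members 21 stayed on one side of 0 and 14 did not, with ranges of -0.088 to 0.38 (Acaca), -0.11 to 0.053 (Dhcr7), -0.65 to 0.25 (Elovl5), -0.84 to 0.20 (Fasn), -0.099 to 0.42 (Fdft1), -0.33 to 0.65 (Fdps), -0.012 to 1.10 (Hmgcs1), -0.044 to 0.92 (Idi1), -0.77 to 0.76 (Mlycd), -0.58 to 0.084 (Mvd), -0.47 to 0.44 (Mvk), -0.0082 to 0.84 (Sc5d), -0.71 to 0.090 (Stard4) and -0.56 to 0.29 (Tm7sf2). The cause was not tested. The counts of sterol enzymes and regulators in each direction, and their overlap by FPKM, were alternatives chosen after seeing the data. Members with few counts, such as Acss1 and Acacb, are limited by depth.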
